A study of Mus musculus with 10 samples.

Results

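Of 39 genes of the acute-phase and inflammatory response, 35 were measured in the mouse dentate gyrus between 4 and 12 weeks of age, and 1 of them changed past the threshold, against 0.82% of all genes in the trend over age. The list was set by gene symbol, and a gene counted as measured where the array's annotation gave a probe set to it alone. The 35 stand among 19752 genes measured in this way. Ptx3, which encodes the secreted pattern recognition protein pentraxin 3, fell 1.42-fold over the series. A moderated F-test over the 5 ages did not call it (adjusted p = 0.063). A further 8 genes (22.9%, against 3.01% of all genes) had both 12-week arrays above all 8 arrays of younger ages. They included the endothelial genes Sele, Icam1 and Lrg1, and none of these 8 passed the test after adjustment. The comparison of 12 weeks with the other ages was chosen with earlier results of these data known, so this share is no independent test. The cytokine genes Il1a, Il1b and Il6 and the serum amyloid gene Saa3 lay within the range of olfactory and pheromone receptor genes, which served as a reference for dim signal. Ptx3 also had a mean in this dim range, as did S100a8 and Chil3, which are among the 8 genes with high 12-week arrays.

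The study dissected both dentate gyri, the hippocampal region of the granule neurons, from mice of a strain the labels write C56BL/6J. The 10 arrays form 5 groups of 4, 6, 8, 10 and 12 weeks with 2 arrays each, and no animal was treated. Nothing in the labels tells if both arrays at an age are of different mice, so each p-value rests on array-to-array spread, part of which may be technical. Values are levels on a log2 scale, as inferred from their range, so that a difference of 1 is a 2-fold change. The dissection was followed by mechanical dissociation of the tissue with tweezers and a pipette.

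Cytokines such as interleukin 1 and tumour necrosis factor act through NF-kB, a transcription factor held in the cytoplasm by the inhibitor that Nfkbia encodes, and they induce chemokines and endothelial adhesion molecules that slow and arrest leukocytes at the vessel wall. Interleukin 6 and its relative oncostatin M act through STAT3 and the C/EBP factors and induce acute-phase proteins, while Socs3 ends the signal. In healthy brain most of these genes are weakly expressed, and endothelial cells, astrocytes and microglia are their main inducible sources.

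The arrays carried the labelled tissue. Prox1, a transcription factor that granule neurons need, lay between 12.15 and 12.38 and Dsp, a desmosomal gene of these cells, between 11.35 and 11.53. The labels give the sex as female, but Xist lay between 5.41 and 6.02 and the Y-linked gene Uty between 9.10 and 9.34 on all 10 arrays, which goes against that label. The array of 6 weeks replicate 1 carried choroid plexus RNA, with Ttr at 13.77 against at most 10.15 elsewhere, and that of 8 weeks replicate 1 had the narrowest spread of levels, with an SD over genes of 2.01 against up to 2.12. Olfactory, vomeronasal and trace amine receptor genes, 1203 in all, set a reference for dim signal. The 95th percentile of their levels averaged 7.01 over the arrays, and genes with a mean below it are called dim. Of the 35 genes, 12 were dim and 23 were not. Selp (P-selectin), Il1r1 (an interleukin 1 receptor) and C3 (complement factor 3) had no probe set of their own in the annotation used, and the probe set of the GTPase gene Gbp2 is shared with Gbp2b. That shared probe set lay between 6.66 and 7.01, and the levels of these 4 genes are not analysed further.

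The promoters of 4 genes on which the results turn are shown here, as the 250 bases before the first listed start, from RefSeq on GRCm38.p6. For Sele this start lies inside the annotated span of the gene (164039614 to 164058487). Those of Lrg1, Icam1 and Ptx3 lie at the edge of the span. Sele, Lrg1 and Icam1 were chosen as genes of the vessel wall with high 12-week arrays, and Ptx3 as the gene that passed the test. Capitals mark matches to an NF-kB motif (GGG and CC with any 5 bases between), C/EBP letters TTGCNNAA or STAT letters TTCNNNGAA on either strand.
Sele, chr1:164047984-164048233, plus strand: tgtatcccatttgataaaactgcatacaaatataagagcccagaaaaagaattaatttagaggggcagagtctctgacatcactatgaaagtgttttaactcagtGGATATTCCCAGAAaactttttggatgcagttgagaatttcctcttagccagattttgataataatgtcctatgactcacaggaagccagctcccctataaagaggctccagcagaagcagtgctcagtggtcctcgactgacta
Lrg1, chr17:56121947-56122196, minus strand: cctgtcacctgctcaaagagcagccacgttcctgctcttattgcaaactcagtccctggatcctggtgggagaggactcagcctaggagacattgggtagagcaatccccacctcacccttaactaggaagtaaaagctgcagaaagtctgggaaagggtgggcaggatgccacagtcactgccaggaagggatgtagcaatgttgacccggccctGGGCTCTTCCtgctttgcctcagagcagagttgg
Icam1, chr9:21015690-21015939, plus strand: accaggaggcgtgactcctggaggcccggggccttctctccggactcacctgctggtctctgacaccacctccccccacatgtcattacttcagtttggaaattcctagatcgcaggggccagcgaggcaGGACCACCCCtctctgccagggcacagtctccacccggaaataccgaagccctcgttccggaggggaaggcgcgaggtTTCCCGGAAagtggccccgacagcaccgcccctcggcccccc
Ptx3, chr3:66219637-66219886, plus strand: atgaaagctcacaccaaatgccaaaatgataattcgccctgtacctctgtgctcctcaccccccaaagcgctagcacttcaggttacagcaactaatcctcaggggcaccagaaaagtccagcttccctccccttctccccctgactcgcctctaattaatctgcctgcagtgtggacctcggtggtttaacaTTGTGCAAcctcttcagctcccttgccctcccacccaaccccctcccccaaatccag

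In the Sele promoter the NF-kB and STAT matches overlap, and their first bases lie 145 and 140 bases before the start. Icam1 has an NF-kB match 120 bases and a STAT match 42 bases before the start, Lrg1 an NF-kB match 34 bases before it, and Ptx3 a C/EBP match 57 bases before it. Promoter sequences were found for 30 of the 39 genes, among them Selp, Il1r1 and C3, whose levels were not measured. The NF-kB motif occurred in 19 of these 30 (63.3%) against 45.4% of the promoters of 27025 genes, C/EBP letters in 8 (26.7% against 9.55%), STAT letters in 5 (16.7% against 7.18%) and metal response element letters TGCNCNC in 13 (43.3% against 43.8%). A match to such short letters describes the sequence and does not show that a factor binds there.

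Among the acute-phase and secreted defence proteins, Ptx3 is a long pentraxin made by glia, endothelium and myeloid cells that binds microbes and matrix proteins. Its level was 7.08 and 7.10 at 4 weeks, 6.76 and 6.77 at 6 weeks, 6.86 and 6.75 at 8 weeks, 6.64 and 6.60 at 10 weeks, and 6.53 and 6.52 at 12 weeks. Both 4-week arrays lay above all others and both 12-week arrays below all others. The fitted change over the 8 weeks was −0.51 ± 0.07 (SE, limma adjusted p = 0.0084), and 12 weeks lay below 4 weeks by −0.56 ± 0.06 (adjusted p = 0.0091). Ptx3 exceeded the dim reference of the same array only on both 4-week arrays, so its fall took it into the dim range, where a change may be understated. The trend call was lost without 4 weeks replicate 1 (adjusted p = 0.068) or replicate 2 (0.056), and that of 12 against 4 weeks without any 1 of the 4 arrays compared (0.093 to 0.13). Over the 5 ages taken as a factor, its moderated F-test gave an adjusted p of 0.063.

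**Figure D1:**
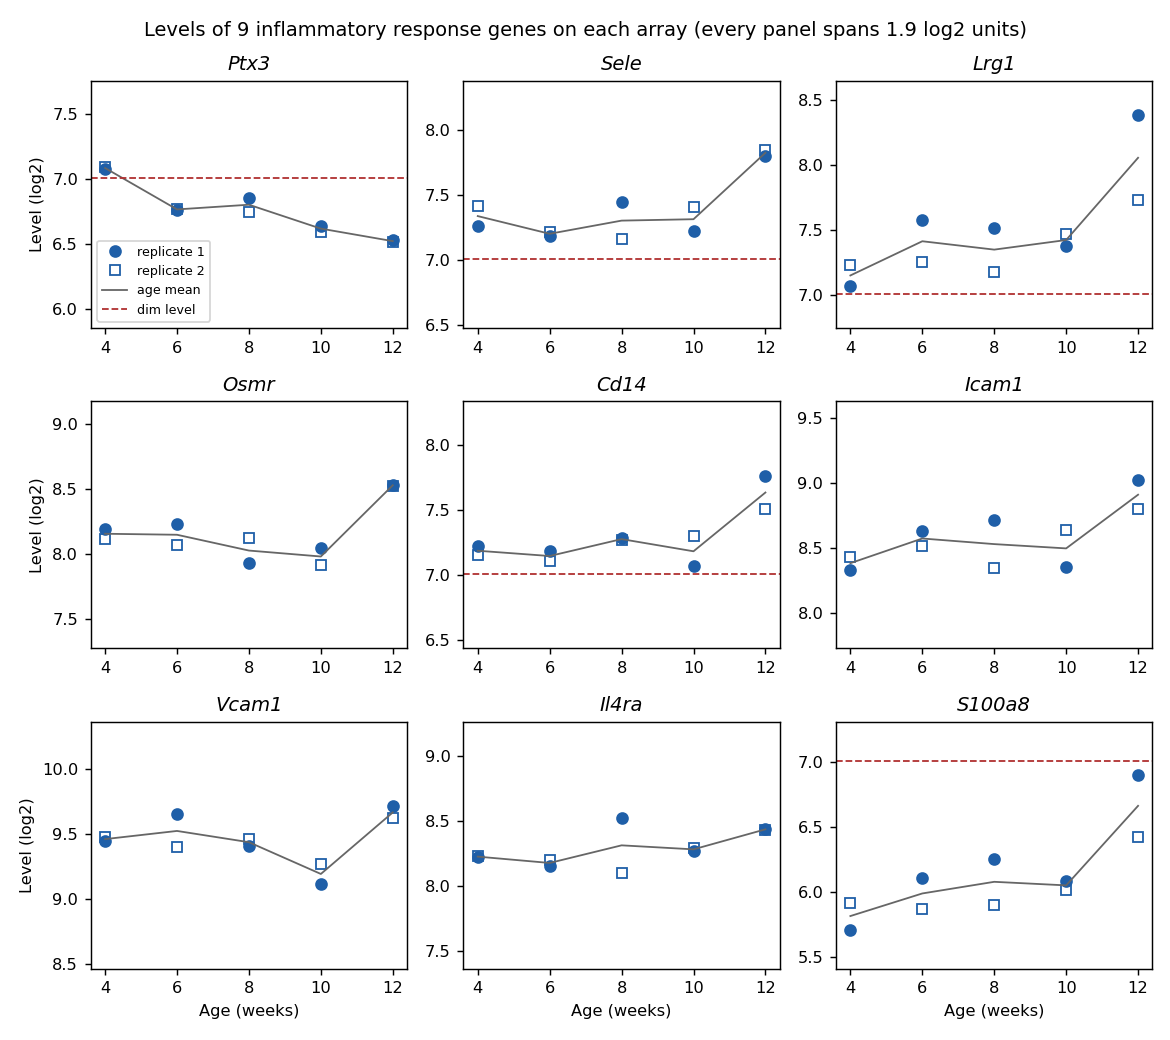
Levels on each array (log2) against age in weeks for the 8 genes named by the rule and S100a8. Filled circles are replicate 1, open squares replicate 2, the line joins the means of 2 arrays, and the dashed line is the dim level of 7.01 where it falls inside the panel; Ptx3 declines from 7.09 to 6.52, and the 12-week arrays of Sele, Lrg1, Osmr, Cd14, Icam1 and S100a8 lie above all others.

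Lrg1, leucine-rich alpha-2-glycoprotein 1, is an acute-phase glycoprotein that brain endothelium also makes. Its levels were 7.07 and 7.23 at 4 weeks, 7.57 and 7.25 at 6 weeks, 7.52 and 7.18 at 8 weeks, 7.37 and 7.47 at 10 weeks, and 8.38 and 7.73 at 12 weeks. Both 12-week arrays were the highest, and they differed from each other by more than the 8 other arrays did. The 12-week mean exceeded the mean of the other ages by 0.72 ± 0.16 (SE; 95% interval 0.36 to 1.09, adjusted p = 0.28) and that of 4 weeks by 0.91 ± 0.20 (adjusted p = 0.13). The first difference was 0.39 without 12 weeks replicate 1 and 1.05 without replicate 2, so 1 array carried much of it.

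Saa3, the extrahepatic serum amyloid A gene, was dim on all arrays, from 5.83 to 6.22, with a change over age of 0.07 ± 0.11. Serpina3n, a serine protease inhibitor of reactive astrocytes, lay between 11.56 and 11.95 and had a difference of 0.03 at 12 weeks (95% interval −0.12 to 0.18). Mt1 and Mt2 encode metallothioneins, small metal-binding proteins of astrocytes that glucocorticoids and interleukin 6 induce. Mt1 ranged from 12.68 to 13.06 and Mt2 from 13.50 to 13.86, with 12-week differences of −0.02 and 0.04. Both had their lowest array at 4 weeks replicate 2 and their highest at 8 weeks replicate 1, and the intervals of both differences stayed within −0.24 and 0.23. Steap4, a metalloreductase induced in reactive glia, was dim (6.45 to 6.85) and had a difference of 0.07. Except for Ptx3 and Lrg1, no gene of these groups had its 12-week arrays apart from the others.

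The adhesion molecules are the part of the list that endothelial cells display to leukocytes. Sele encodes E-selectin, on which leukocytes roll. Its levels were 7.26 and 7.41 at 4 weeks, 7.19 and 7.22 at 6 weeks, 7.44 and 7.16 at 8 weeks, 7.22 and 7.40 at 10 weeks, and 7.80 and 7.85 at 12 weeks. The younger arrays had no order by age, and the 12-week arrays lay above all of them and close to each other. The 12-week mean stood above that of the other ages by 0.54 ± 0.08 (95% interval 0.35 to 0.72), or 1.45-fold, with an adjusted p of 0.079. Of 19 alternative fits 7 put it past the threshold (adjusted p from 0.014 to 0.61 over all 19), among them quantile normalization (0.014), the fit without the dimmest 30% of genes (0.026) and the fit without 8 weeks replicate 1 (0.026).

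Icam1, the ligand of leukocyte integrins on endothelium and microglia, had 8.33 and 8.43 at 4 weeks, 8.63 and 8.52 at 6 weeks, 8.71 and 8.34 at 8 weeks, 8.35 and 8.64 at 10 weeks, and 9.02 and 8.80 at 12 weeks. The 12-week arrays were the highest, and the lower of them lay 8.80 against 8.71 for 8 weeks replicate 1. The difference from the other ages was 0.41 ± 0.11 (95% interval 0.16 to 0.66, adjusted p = 0.34). Vcam1, a ligand of the integrin VLA-4 on lymphocytes and monocytes, overlapped between groups. It had 9.44 and 9.47 at 4 weeks, 9.65 and 9.39 at 6 weeks, 9.41 and 9.46 at 8 weeks, 9.11 and 9.27 at 10 weeks, and 9.71 and 9.62 at 12 weeks. Its lowest age was 10 weeks, its trend was 0.03 ± 0.15, and its difference at 12 weeks was 0.26 ± 0.08 (adjusted p = 0.39).

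The measured genes assigned to the vessel wall were these 3 and Lrg1, and their median difference at 12 weeks was 0.48, against −0.01 for all genes. All 4 had unadjusted p-values under 0.05 in limma for a higher 12-week level, against 3.23% of all genes, and none passed after adjustment. Of 14 endothelial marker genes measured, 0 passed in limma and 5 had unadjusted p-values under 0.05 for a higher 12-week level, chosen after their values were seen: Vwf (0.44), Flt1 (0.37), Tek (0.31), Pecam1 (0.25) and Tie1 (0.21). Over all 14 the difference was above 0 for 11 and below 0 for 3, with a median of 0.11. Cldn5, Cdh5 and Kdr had 0.08, 0.07 and 0.02. Both 12-week arrays lay above all others for 2 of the 14, Vwf and Flt1, against 3.01% of all genes. The mean over the list was 8.68 to 8.96 on the arrays of younger ages. It was 8.83 on 12 weeks replicate 1, the highest array of Lrg1, Icam1 and Vcam1, and 9.09 on 12 weeks replicate 2, the highest array of Sele. In whole tissue, more cells of a type and more RNA per cell cannot be told apart, and the part of vessel content in these differences was not tested.

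**Figure D2:**
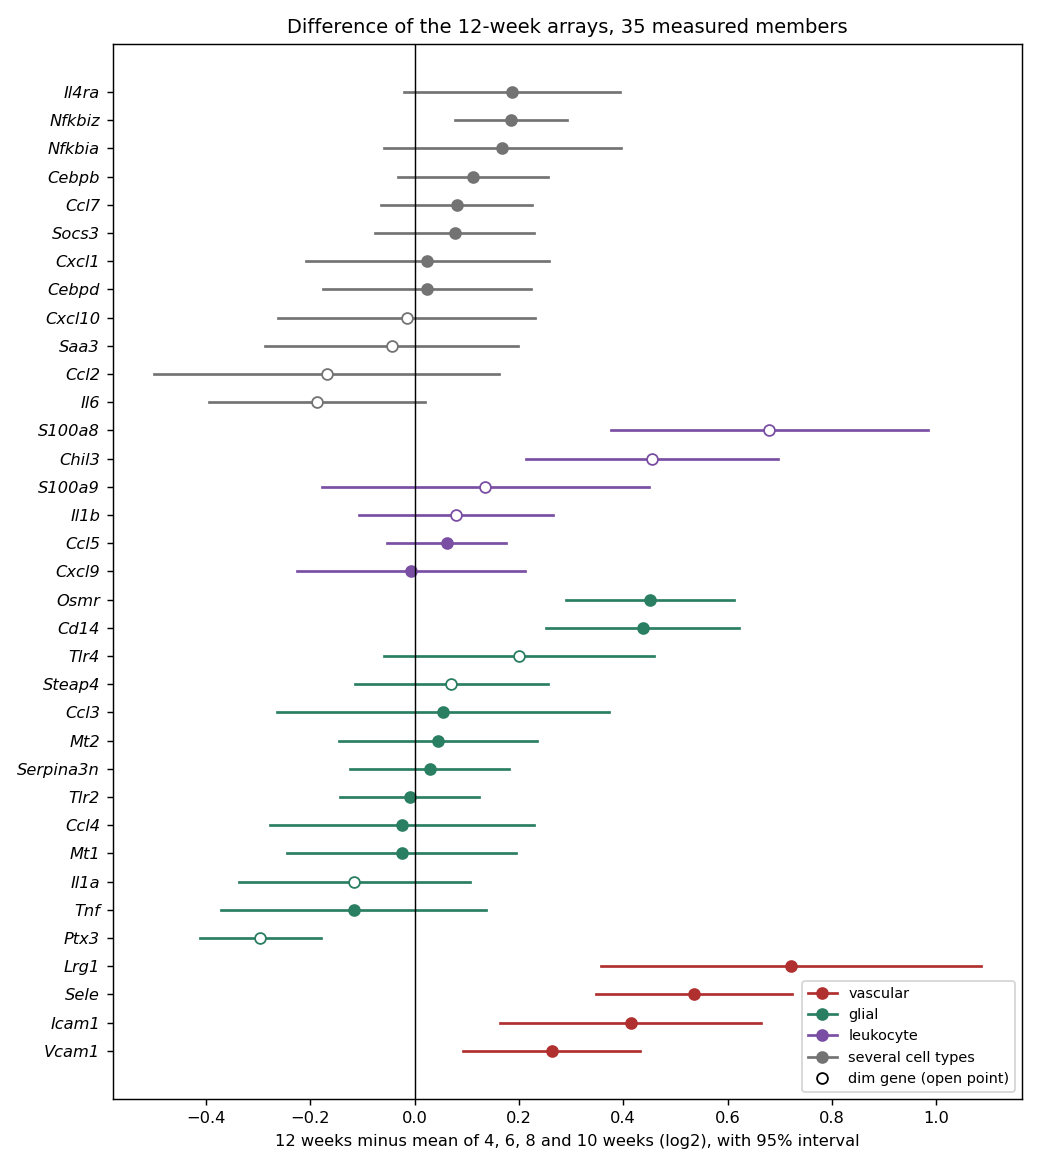
Difference between the 12-week mean and the mean of 4, 6, 8 and 10 weeks (log2) for the 35 measured genes, with 95% intervals from limma, by colour of assigned source; open points are dim genes. The 4 vascular genes lie between 0.26 and 0.72, while most glial, leukocyte and widely expressed genes lie near 0 with intervals across it.

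Of the chemokines, which attract leukocytes, 6 of 8 were above the dim level and none had 12-week arrays apart from the rest. Ccl3, a chemokine of microglia and macrophages shown because it had the widest range of these 8, had 8.09 and 7.89 at 4 weeks, 7.62 and 7.60 at 6 weeks, 7.61 and 7.40 at 8 weeks, 7.44 and 7.28 at 10 weeks, and 7.99 and 7.35 at 12 weeks. Means declined from 7.99 at 4 weeks to 7.36 at 10 weeks, and the 12-week arrays split between a value near those of 4 weeks and one near those of 10 weeks. Its trend of −0.36 ± 0.19 had an adjusted p of 0.54, but without 12 weeks replicate 1 Ccl3 passed as lower. Ccl4, whose annotated span on chromosome 11 (83648624 to 83664683) overlaps that of Ccl3 (83647843 to 83649378), did not share this course, with a range of 7.04 to 7.55 and a trend of 0.03 ± 0.12.

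Cxcl1, a neutrophil attractant, ranged from 7.61 to 8.09 and had its highest value at 8 weeks replicate 1. The interferon-induced chemokine genes Cxcl9 (6.95 to 7.32) and Cxcl10 (6.72 to 7.18, dim) had differences of −0.01 and −0.02 at 12 weeks. The monocyte attractants Ccl2 (6.23 to 6.83, dim) and Ccl7 (7.29 to 7.55) had differences of −0.17 and 0.08. Ccl5, a chemokine of T cells and other lymphocytes, had the narrowest range of the chemokines, 7.71 to 7.89, and a trend of 0.13 ± 0.05 (adjusted p = 0.34).

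The cytokine genes were at or near the dim level. Il6 lay between 3.81 and 4.15, Il1b between 6.16 and 6.55 and Il1a between 5.90 and 6.45, and none exceeded the dim reference of its array on any of the 10. Tnf, which encodes tumour necrosis factor, straddled the reference at 6.93 to 7.45, with its highest value at 8 weeks replicate 1. Il1a, the gene of interleukin 1 alpha, had a trend of −0.36 ± 0.12 (adjusted p = 0.22). It stood at 6.34 and 6.23 at 4 weeks and at 6.14 and 5.91 at 12 weeks, with 6.45 at 6 weeks replicate 1 as the highest. For dim genes such values bound the level from above and do not show that the gene is silent.

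The receptors included both of the glial genes with high 12-week arrays. Osmr encodes the oncostatin M receptor subunit, which astrocytes and endothelium use to respond to that cytokine. Its levels were 8.20 and 8.12 at 4 weeks, 8.23 and 8.07 at 6 weeks, 7.93 and 8.12 at 8 weeks, 8.05 and 7.92 at 10 weeks, and 8.54 and 8.53 at 12 weeks. The age means declined slightly up to 10 weeks and both 12-week arrays then lay above all others. The 12-week difference was 0.45 ± 0.07 (95% interval 0.29 to 0.61, adjusted p = 0.085), or 1.37-fold, and it passed in 4 of 19 alternatives, such as without the dimmest 30% of genes (adjusted p = 0.026; range over the 19, 0.018 to 0.55). The linear trend of Osmr was 0.23 ± 0.16 (adjusted p = 0.65), and it was 0.09 without either 12-week array.

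Cd14, the co-receptor that hands bacterial lipopolysaccharide to Toll-like receptor 4, had 7.22 and 7.15 at 4 weeks, 7.19 and 7.11 at 6 weeks, 7.29 and 7.27 at 8 weeks, 7.07 and 7.30 at 10 weeks, and 7.77 and 7.51 at 12 weeks. It lay near the dim level before 12 weeks and above it at 12 weeks, and the 12-week difference was 0.44 ± 0.08 (95% interval 0.25 to 0.62, adjusted p = 0.16). Its partner Tlr4 was dim, at 5.95 to 6.48, with a difference of 0.20. Tlr2, the receptor of bacterial lipopeptides, had the narrowest range of the 35 genes, 7.62 to 7.78, and a difference of −0.01 (95% interval −0.14 to 0.12). Il4ra, the interleukin 4 receptor subunit, had 8.22 and 8.23 at 4 weeks, 8.15 and 8.20 at 6 weeks, 8.52 and 8.10 at 8 weeks, 8.27 and 8.29 at 10 weeks, and 8.44 and 8.43 at 12 weeks. Only 8 weeks replicate 1 lay above its 12-week arrays, and the 12-week difference was 0.19 ± 0.09 (adjusted p = 0.64).

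Microglial markers, as a list of 13 measured genes, averaged 9.47 and 9.31 on the 12-week arrays and 9.26 to 9.36 on the others. The complement genes C1qc (0.36), C1qb (0.34) and C1qa (0.27) and the receptor gene Csf1r (0.16), chosen after their values were seen, had higher means at 12 weeks. Their unadjusted limma p-values were under 0.05, and Gpr34 (−0.18) was lower by the same measure. These were 4 and 1 of the 13, against 3.23% and 5.02% of all genes. C1qb had 11.69 on 12 weeks replicate 1 but 11.16 on replicate 2, against up to 11.18 on the younger arrays. C1qa had 9.62 and 9.25 there, against up to 9.23. Over the 13 genes the 12-week difference was above 0 for 8 and below 0 for 5, with a median of 0.09. Astrocyte markers averaged 11.42 and 11.44 at 12 weeks and 11.45 to 11.53 before. The part of cell content in the values of Osmr and Cd14 was not tested.

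The intracellular regulators were above the dim level and changed little. Nfkbiz encodes a nuclear co-regulator of NF-kB target genes. Its levels, chosen for display after they were seen, were 7.93 and 7.95 at 4 weeks, 7.96 and 7.90 at 6 weeks, 7.96 and 7.95 at 8 weeks, 8.08 and 8.09 at 10 weeks, and 8.18 and 8.15 at 12 weeks. The 6 arrays of 8 weeks and younger lay between 7.90 and 7.96, and the 10-week and 12-week arrays lay above all younger ones. The trend was 0.24 ± 0.06 (adjusted p = 0.067). It passed with array weights (adjusted p = 0.030) and without the dimmest 30% of genes (0.029).

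Nfkbia, the NF-kB inhibitor that NF-kB itself induces, ranged from 9.35 to 9.92, with its highest value at 12 weeks replicate 1 but 9.60 at replicate 2, and had a difference of 0.17 (95% interval −0.06 to 0.40). Socs3, the inhibitor of STAT3 signalling, ranged from 7.90 to 8.16 and had a trend of 0.14 ± 0.07 (adjusted p = 0.45); its other probe set lay between 7.05 and 7.28. The transcription factor genes Cebpb (from 8.73, with a range of 0.27) and Cebpd (8.15 to 8.53) had trends of 0.21 ± 0.07 (adjusted p = 0.19) and 0.06 ± 0.10. All 5 regulators had differences above 0 at 12 weeks, from 0.02 to 0.19, and none passed.

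S100a8 and S100a9 encode the subunits of calprotectin, an abundant neutrophil protein, and Chil3 a chitinase-like protein of neutrophils and macrophages. All 3 were dim. S100a8, chosen for display after its values were seen, had 5.71 and 5.92 at 4 weeks, 6.11 and 5.87 at 6 weeks, 6.25 and 5.90 at 8 weeks, 6.08 and 6.02 at 10 weeks, and 6.90 and 6.42 at 12 weeks. It exceeded the dim reference on none of the 10 arrays, yet its 12-week arrays lay above the rest by 0.68 ± 0.13 (95% interval 0.38 to 0.98, adjusted p = 0.18). Without 12 weeks replicate 1 this difference was 0.44. Chil3 also had its 2 highest arrays at 12 weeks, 5.22 and 4.83 against at most 4.72, with a difference of 0.46 ± 0.11 (adjusted p = 0.29), which was 0.26 without 12 weeks replicate 1. S100a9, by contrast, reached 6.99 on both 8 weeks replicate 1 and 12 weeks replicate 1 and had 6.58 on 12 weeks replicate 2, so its groups overlapped.

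Of 11 other neutrophil markers measured, 6 were dim. The trend over age was above 0 for 11 of 11, with a median of 0.10, against 10121 of all 19752 genes. Lymphocyte and monocyte markers, of which 8 of 10 were dim, had trends above 0 for 10 of 10, with a median of 0.13. The dim reference itself was 6.90 and 6.97 on the 4-week arrays and 6.98 and 7.04 on the 12-week arrays. Its part in the trends of these weakly detected genes was not tested. The 12-week difference was above 0 for 7 and below 0 for 4, with a median of 0.02, against 8531 of all genes above 0. Retnlg, a resistin-like gene of neutrophils, was higher at 12 weeks than the mean of the other ages by 0.66 (limma adjusted p = 0.038). Mmp8, a neutrophil collagenase gene, rose over age by 0.65 (limma adjusted p = 0.045), and both genes were dim. These tests called 0.0962% and 0.82% of all genes. Ly6g, a defining surface marker, was dim, with a trend of 0.10 and a 12-week difference of 0.02. Elane, the neutrophil elastase gene, had a trend of 0.07 and a 12-week difference of −0.09. The list mean was 6.56 and 6.48 on the 12-week arrays and 6.32 to 6.55 on the others. Lymphocyte and monocyte markers averaged 6.02 and 6.03 at 12 weeks, inside the range of 5.81 to 6.18 of the younger arrays.

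**Figure D3:**
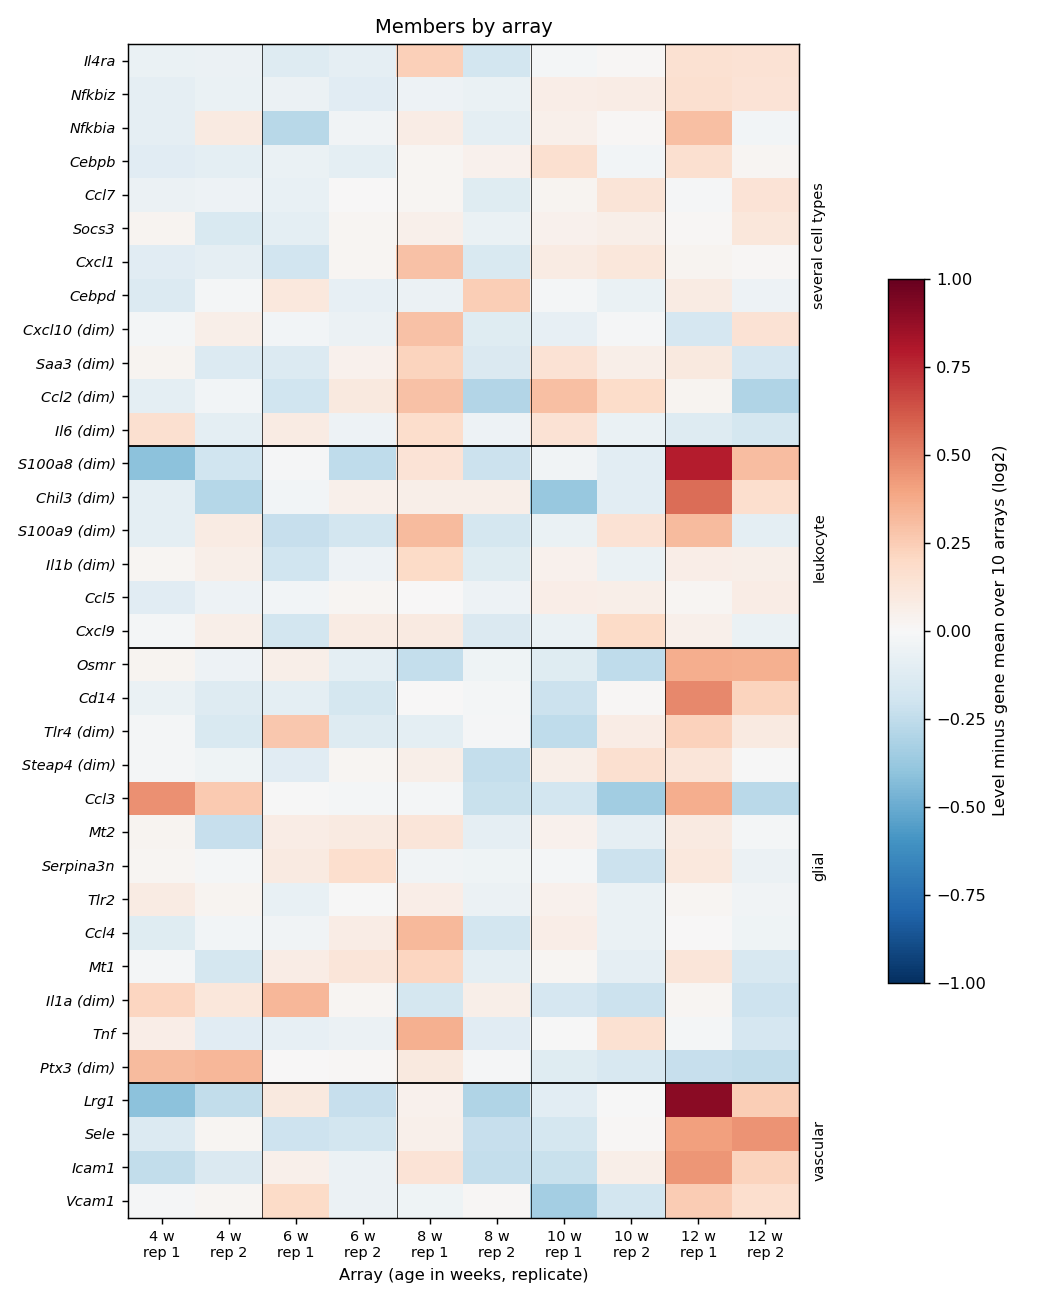
Level of each of the 35 genes on each array minus its mean over the 10 arrays (log2), by assigned source; dim genes are marked. Lrg1 and S100a8 reach their highest values on 12 weeks replicate 1, and Ptx3 is high on both 4-week arrays. The array of 8 weeks replicate 1 is high for many chemokine and cytokine genes. It is the highest array for 28.6% of the 35 genes and for 29.6% of all genes.

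Over the whole list the counts ran as follows. The linear trend called 1 of 35 genes, Ptx3, as lower, against 0.82% of all genes called and 0.673% called lower. The comparison of 12 with 4 weeks also called Ptx3 alone, against 0.516% of all genes and 0.39% called lower. At an unadjusted p under 0.05 the trend held 10 of 35, 8 higher and 2 lower, against 11.7% of all genes, 4.41% higher and 7.28% lower. For 12 against 4 weeks it was 10 as well, 9 higher and 1 lower, against 9.57% of all genes, 4.15% higher and 5.43% lower. At 12 weeks against the mean of the other ages, limma called 0 of 35 (0.0962% of all genes), with 10 at an unadjusted p under 0.05, 9 higher and 1 lower, against 8.25% of all genes, 3.23% higher and 5.02% lower. The test over any ages called 0 (0.167% of all genes), with 10 at an unadjusted p under 0.05 (8.46%). Both 12-week arrays lay above the 8 others for 8 of 35 genes, or 22.9%, against 3.01% of all genes. These were Sele, Icam1, Lrg1, Osmr, Cd14, Nfkbiz, S100a8 and Chil3. Both lay below the others for Ptx3 and Il6, or 5.71% against 4.0%. Without 6 weeks replicate 1 and 8 weeks replicate 1, which leaves fewer arrays to exceed, the first count was 11, or 31.4% against 4.77% of all genes.

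The median difference at 12 weeks was 0.07 over the 35 genes, 0.08 over the 23 above the dim level and 0.03 over the 12 dim ones, against −0.01 over all genes. By source it was 0.48 for the 4 vascular genes, 0.03 for 13 glial genes, 0.11 for 6 leukocyte genes and 0.05 for the 12 genes of several cell types. Il4ra, Cxcl1, Cxcl10, Tnf, Saa3, Mt1 and Mt2 were among 10 genes with their highest value on 8 weeks replicate 1, or 28.6%, against 29.6% of all genes. The same number peaked on 12 weeks replicate 1, against 5.55% of all genes, and 4 on 12 weeks replicate 2 (11.4% against 11%).

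Other genes of these pathways were counted from lists of each pathway. Of 22 measured genes of NF-kB and Toll-like receptor signalling, 0 passed in limma in any comparison, and at an unadjusted p under 0.05 2 were higher and 0 lower at 12 weeks. Their median difference was 0.03, with values of 0.06 for Nfkb2, 0.03 for Rel and −0.03 for Rela, which encode NF-kB subunits. Of 14 genes of interleukin 6 family and STAT3 signalling 0 passed as well, with 2 higher and 0 lower at an unadjusted p under 0.05 at 12 weeks. Beside both lists, 3.23% of all genes were higher and 5.02% lower by this measure. The receptor genes Il6st, Il6ra and Lifr had differences of 0.12, 0.10 and 0.19.

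Of 23 reactive astrocyte genes 2 passed as higher at 12 than at 4 weeks and none as lower, against 0.516% of all genes passing. Lcn2, lipocalin 2, an acute-phase iron-binding protein that shares the high 12-week arrays, had 6.70 and 6.66 at 4 weeks, 8.54 and 7.47 at 6 weeks, 7.05 and 6.84 at 8 weeks, 7.09 and 7.06 at 10 weeks, and 10.42 and 9.69 at 12 weeks. Its difference from the other ages was 2.88 (limma adjusted p = 0.0065), and, as for Lrg1, 12 weeks replicate 1 was the higher of its pair. The high 12-week level of Lcn2 was known from these data when the lists were chosen, so its p-value is no independent support. Ptgs2, the prostaglandin synthase COX-2 that granule neurons also express, rose by 0.48 between 4 and 12 weeks (adjusted p = 0.038). The filament genes Gfap and Vim, which reactive astrocytes raise, had 12-week differences of −0.06 and 0.04 and did not pass.

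Of 19 further acute-phase and antimicrobial genes 15 were dim and 1 passed, Ch25h, the gene of cholesterol 25-hydroxylase, which has a mean in the dim range. It had 7.57 and 7.49 at 12 weeks and 6.24 to 6.68 on the younger arrays, where it never exceeded the dim reference of its array. The measured difference of 1.04 (limma adjusted p = 0.0065) therefore rests on dim values on one side and may understate the change. This test called 0.0962% of all genes. The high 12-week level of Ch25h was known from these data when the lists were chosen, so its p-value is no independent support. Saa1, Saa2 and Saa4, the other serum amyloid genes, were dim and had differences of −0.06, 0.01 and 0.19. Among 12 glucocorticoid-responsive genes Pdk4, a kinase that limits glucose oxidation, rose over age by 0.41 (limma adjusted p = 0.046). It rose by 0.50 between 4 and 12 weeks (limma adjusted p = 0.027). These tests called 0.82% and 0.516% of all genes. Fkbp5, Sgk1 and Tsc22d3 had trends of 0.13, 0.22 and 0.00 and did not pass. Of 12 immediate early and dissociation-response genes 0 passed in limma. At an unadjusted p under 0.05, 3 had a higher 12-week level, against 3.23% of all genes. The transcription factor genes Fos, Fosb and Jun had 12-week differences of 0.17, 0.29 and 0.12. The mean over that list was 8.92 on both 12-week arrays and 8.67 to 8.86 on the others, so it moved with the 12-week arrays of the inflammatory genes; its part in their values was not tested.

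**Figure D4:**
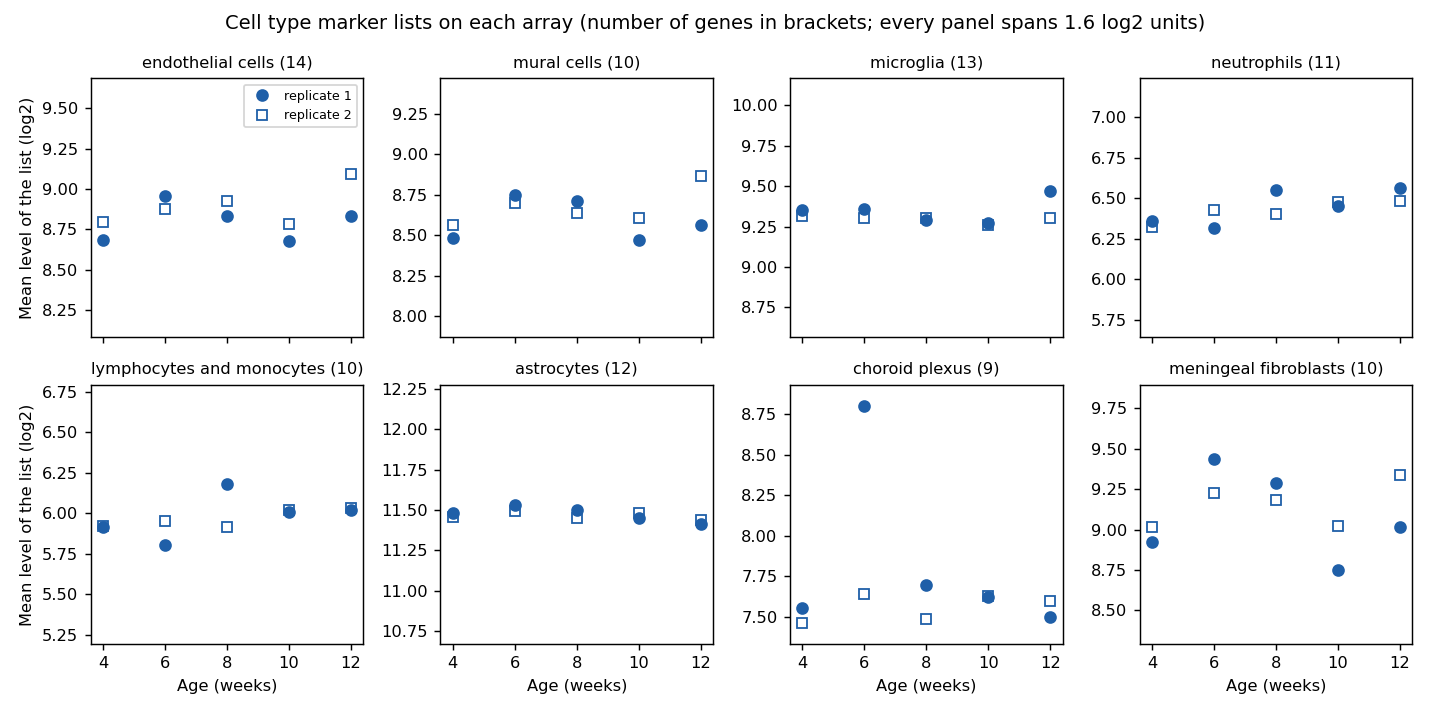
Mean level (log2) of 8 cell type marker lists on each array against age in weeks; filled circles are replicate 1 and open squares replicate 2. Endothelial and mural markers are highest on 12 weeks replicate 2 (9.09 and 8.87), microglial markers on 12 weeks replicate 1 (9.47), and choroid plexus markers on 6 weeks replicate 1 (8.80).

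Choroid plexus markers averaged 7.50 and 7.59 on the 12-week arrays against 8.80 on 6 weeks replicate 1, and meningeal fibroblast markers 9.01 and 9.34 against 8.75 to 9.44 on the younger arrays. Mural cell markers stood at 8.56 and 8.87 at 12 weeks and at 8.47 to 8.75 before. With the choroid plexus mean of each array as a covariate, Ptx3 still passed the trend and the comparison of 12 with 4 weeks, and no other gene of the list passed in any test. Border macrophage markers (6.58 and 6.76 at 12 weeks, 6.59 to 6.88 before) and those of red blood cells and platelets (7.61 and 7.62 against 7.35 to 7.63) had 12-week arrays within or next to the range of the others. Of the last list 5 of 10 genes were measured, none of them a haemoglobin gene. Among them Ppbp, a platelet chemokine gene, was dim and higher at 12 than at 4 weeks by 0.93 (limma adjusted p = 0.025). That test called 0.516% of all genes. Granule cell markers averaged 11.35 and 11.29 at 12 weeks and 11.25 to 11.42 before. Of these, 1 of 10, Tdo2, fell over age by 0.44 (limma adjusted p = 0.032), and the trend called 0.673% of all genes as lower.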

How the data were processed

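The deposited table holds 1 value per probe set and array, for 25254 probe sets. Per the labels' protocols the authors hybridized RNA labelled with an Affymetrix whole-transcript kit, and the deposited values are taken as normalized log2 expression because they run from 2.5 to 15.0 with medians of 8.27 to 8.31. Their log base, software and normalization are not given in the sources used here. The build was mm10, per the submitters' processing notes. Of the probe sets 21496 name 1 gene, 1565 several and 2193 none; the probe set of highest mean per gene left 19752 genes, with 0 symbols changed against RefSeq of GRCm38.p6, the source of the coordinates.

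Tests used limma 3.58.1 in R 4.3.3 over all genes, two-sided, with Benjamini-Hochberg adjustment and a threshold of 0.05. Age in weeks as a number gave the trend, reported over 8 weeks (8 residual degrees of freedom). Age as a factor (5 degrees of freedom) gave the other comparisons. The fits were also run on simulated data with independent noise and no array effects, which cannot address shifts that come with single arrays. The 2 arrays per age limit the precision.

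The members, the lists and the comparison of 12 weeks with the mean of the other ages were chosen with earlier results of these data known. Counts and p-values that single out the 12-week arrays are therefore descriptive and no independent test. Values are given in full for members called in any test and for those above the dim level whose 12-week difference was at least 0.5, filled up to 8 by size; Ccl3, Nfkbiz, S100a8 and Chil3 were added after their values were seen; of the pathway lists, called genes and the first 3 are named. Assigned sources are textbook knowledge. The first listed promoter of each gene was searched. Replicate numbers were not used to pair the arrays in the main fits. The deviations of equal numbers correlated between −0.34 and 0.16 over 10 pairs of ages, above 0.1 for 3 of them. Such correlations cannot exclude a batch shared by arrays of equal number. Alternatives were another normalization, the replicate block, a filter on dim genes, other variance models, array weights, the mean over probe sets, a choroid plexus covariate and leaving out arrays.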

Additional observations from a re-analysis of the deposited data

How the results depend on the processing

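The number of listed genes called by the trend (1) was 2 with trended and robust variances (Ptx3, S100a8), 3 with array weights (these and Nfkbiz) and 0 to 2 leaving out 1 array. For 12 against 4 weeks (1) it was 2 with quantile normalization, 3 with trended and robust variances, 4 with array weights, 2 without 6 weeks replicate 1 and 8 weeks replicate 1, and 0 to 3 leaving out 1 array; the added genes were Sele, S100a8 and Lrg1. For 12 weeks against the other ages (0) it was 1 with quantile normalization, 2 without the dimmest 30% of genes, 3 with trended and robust variances, 2 with array weights, 1 without those 2 arrays and 0 to 2 leaving out 1 array; the added genes were Sele, Osmr and S100a8. For any age (0) it was 1 (Ptx3) with quantile normalization or array weights and 0 to 1 leaving out 1 array. Under the filter on dim genes Ptx3 was not tested, and the 1 gene called was Nfkbiz in the trend and Sele in 12 against 4 weeks. The count of genes with both 12-week arrays above the others (8) ranged from 8 to 11, with 11 only where arrays were left out, which leaves fewer values to compare. With the replicate block the counts of listed genes were 1, 1, 0 and 0, as without it. Leaving out a 12-week array leaves 1 array at that age, assumed to vary like the others. The trend of Vcam1 (0.03) ran from −0.11 to 0.11 leaving out 1 array, and was below 0 without 12 weeks replicate 1 (−0.11) or replicate 2 (−0.05). The cause of these shifts was not tested.

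Over all genes the trend called 162 (29 higher, 133 lower), 196 with quantile normalization (65 and 131), 337 without the dimmest genes, 363 with trended and robust variances, 417 with array weights and 35 to 279 leaving out 1 array. The count for 12 against 4 weeks was 102 (25 higher, 77 lower), 141 with quantile normalization (54 and 87), 66 with the replicate block, 210, 304 and 261 in the same 3 settings, 62 with the choroid plexus covariate and 13 to 188 leaving out 1 array. For 12 weeks against the other ages it was 19 (7 higher, 12 lower), 27 with quantile normalization (13 and 14), 40, 71 and 36, 12 with the covariate and 0 to 34; for any age 33, 13 with the block, 69, 158 and 69, 17 with the covariate and 5 to 50. The lowest counts came without 4 weeks replicate 1 in the trend and in 12 against 4 weeks, without 12 weeks replicate 1 in 12 weeks against the other ages, and without 4 weeks replicate 2 for any age.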
